A study of Homo sapiens with 15 samples.

Results

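The enzymes that conjugate drugs, steroids and other small molecules were followed at the transcript level in MHCC-97H cells. MHCC-97H is a line of human liver cancer (hepatocellular carcinoma) in long-term culture. These enzymes comprise the UDP-glucuronosyltransferases (UGT), the glutathione S-transferases (GST), the microsomal glutathione S-transferases (MGST1 to MGST3) and the sulfotransferases (SULT). Every row of the count table with a symbol of these families was taken, which gave 54 of 19143 rows: 16 GST, 3 MGST, 13 SULT, 9 UGT1A, 10 UGT2 and 3 UGT3 or UGT8 genes. Bulk RNA sequencing was done in 2 rounds with 3 libraries per group. The first round compared cells in an animal model, cells in a 3D model and cells in a 2D model. The second compared heat-treated cells in the 3D model with 3D cells labelled as treatment controls. All 15 libraries carry the same cell line, and no other allele, agent or transgene is named in the labels. The host animal, the site of growth, the 3D material, the temperature and the length of heating are not stated there. The labels call replicates biological without saying that they were separate cultures or animals, so each p-value measures only the spread between these libraries. In bulk samples, fewer cells that express a gene and less RNA per cell cannot be told apart.

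Conjugation makes fat-soluble molecules water-soluble so that they can leave the cell and the body. UGT enzymes sit in the membrane of the endoplasmic reticulum and transfer glucuronic acid from UDP-glucuronic acid, SULT enzymes of the cytosol transfer sulfate from an activated donor, and GST enzymes join glutathione to reactive compounds. The liver is the main site of this chemistry. The UGT1A genes form a single locus in which alternative first exons are spliced to the same downstream exons, whereas the UGT2B genes are separate copies. Of the UGT2A genes, UGT2A2 shares 93.3% of its 50-base windows with UGT2A1.

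The libraries held 12605539 to 18634295 counts, of which the members took 0.113 to 0.211%. Levels are counts per library size (CPM) after scaling by the trimmed mean of M values (TMM) over all 15 libraries. Gene levels followed transcript composition in heat replicate 1 and in the first-round 3D replicates 1 and 2. The rank correlation of their departure from 2D with GC content across genes was 0.590 to 0.793, against -0.183 to 0.225 in the other libraries. Values without them stand beside the results they touch. Without 3D replicates 1 and 2 the 3D group is 1 library, replicate 3, which is then assumed to vary like the other first-round groups, so those p-values describe that library and not the 3D model. Of the hepatocyte markers, albumin (ALB) lay at 2.37 ± 0.229 CPM in 2D cells, AFP at 2.01 ± 0.164 and GPC3 at 0.0890 ± 0.0618, while keratin KRT8 lay at 3022 ± 47.97.

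Among the 54 members, 28 passed the test in at least 1 comparison, 12 were tested and never passed, and 14 were too low to be tested in either round. Of those 14, UGT2A1, UGT2A2 and UGT3A1 had 0 reads in all 15 libraries, where a floor of 3 counts per library corresponds to 0.160 to 0.213 CPM, and the other 11 had group means of at most 0.40 CPM. Per kilobase of transcript, MGST1 was the most abundant member in 2D cells at 593 CPM per kb. It was followed by GSTP1 (79.6), GSTK1 (78.9), MGST3 (67.1), GSTO1 (46.0), SULT1C2 (40.1), GSTM3 (25.5), UGT1A10 (21.5) and UGT2B7 (19.7). The UGT genes in that order are UGT1A10, an enzyme known from the gut, and UGT2B7, which conjugates morphine and steroids.

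**Figure D1:**
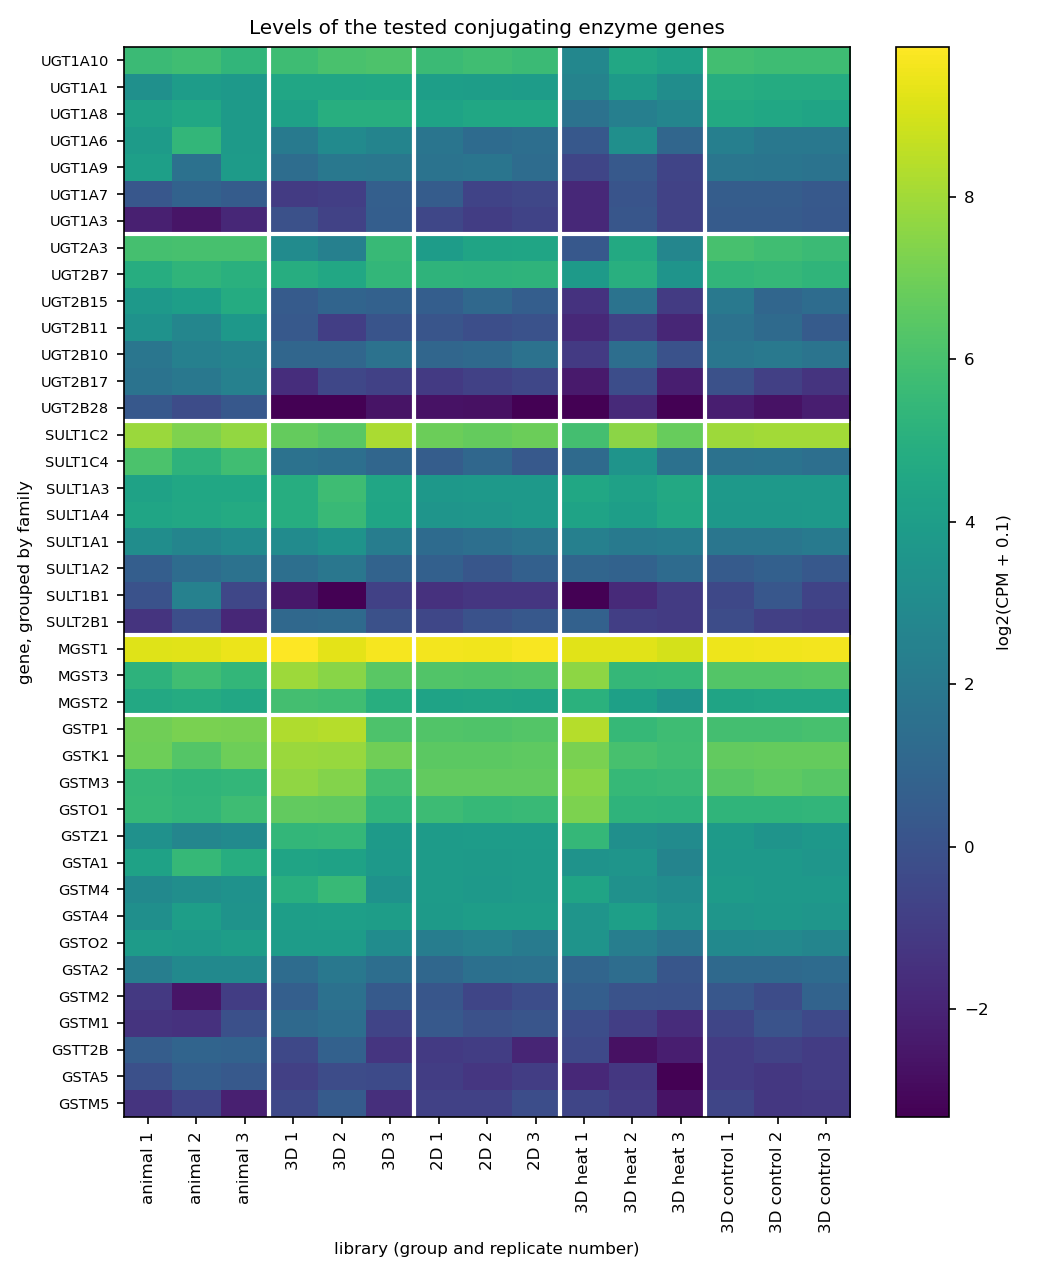
Heat map of log2(CPM + 0.1) for the 40 tested members (rows, grouped by family and sorted by their highest group mean) in the 15 libraries (columns, 3 replicates per group). MGST1 is the brightest row in every library, and UGT2B15, UGT2B11, UGT2B17, UGT2B28 and SULT1C4 are brighter in all 3 animal libraries than in the 3D and 2D libraries.

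Several UGT2B copies were higher in the animal model and others were not called, so the DNA before their start sites is shown first. The windows are the 250 bases upstream of the start in RefSeq, build GRCh38.p14, each written along its gene's own strand. UGT2B15 and UGT2B11 were higher in animal than in 2D libraries, and UGT2B10 and UGT2B7 were not called. Capitals mark runs of at least 12 bases also found in another of the 4 windows. UGT2B15 lies at chr4:68670653-68670902 (minus strand), UGT2B11 at chr4:69214749-69214998 (minus), UGT2B10 at chr4:68815744-68815993 (plus) and UGT2B7 at chr4:69096224-69096473 (plus).
UGT2B15: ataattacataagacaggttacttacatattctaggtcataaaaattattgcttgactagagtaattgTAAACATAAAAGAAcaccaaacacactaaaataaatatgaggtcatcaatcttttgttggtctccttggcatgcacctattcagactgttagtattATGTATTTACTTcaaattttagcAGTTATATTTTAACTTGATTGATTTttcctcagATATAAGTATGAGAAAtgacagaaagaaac
UGT2B11: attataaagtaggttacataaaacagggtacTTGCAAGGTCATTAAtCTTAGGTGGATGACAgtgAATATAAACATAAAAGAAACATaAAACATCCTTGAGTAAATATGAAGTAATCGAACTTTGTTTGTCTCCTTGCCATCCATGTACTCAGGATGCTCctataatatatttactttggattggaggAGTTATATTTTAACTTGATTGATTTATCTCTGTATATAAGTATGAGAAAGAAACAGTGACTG
UGT2B10: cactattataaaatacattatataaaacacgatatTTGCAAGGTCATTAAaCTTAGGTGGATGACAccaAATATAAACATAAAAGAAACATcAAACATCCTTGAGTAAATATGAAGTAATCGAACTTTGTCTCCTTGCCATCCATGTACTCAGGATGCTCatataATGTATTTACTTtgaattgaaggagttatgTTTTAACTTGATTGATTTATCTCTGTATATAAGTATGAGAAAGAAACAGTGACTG
UGT2B7: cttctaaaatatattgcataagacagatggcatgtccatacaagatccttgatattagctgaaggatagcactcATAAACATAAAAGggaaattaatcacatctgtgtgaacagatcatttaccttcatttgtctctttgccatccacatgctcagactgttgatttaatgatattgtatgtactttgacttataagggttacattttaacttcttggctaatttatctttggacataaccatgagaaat

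Aligned end to end, the UGT2B11 and UGT2B10 windows were identical at 90.2% of columns, UGT2B15 at 70.7% with either of them, and UGT2B7 at 61 to 64.5% with the other windows. Shared runs covered 186 and 187 bases in UGT2B11 and UGT2B10, 67 in UGT2B15 and 13 in UGT2B7. Of all members, 45 had a RefSeq window, here of 300 bases with the first 50 of the gene. Short motifs were sought on either strand. The HNF1 motif GTTAAT was in 22.2% of member windows against 8.27% of the 27305 windows of all genes. The antioxidant response core TGACNNNGC was in 24.4% against 16.1%. The xenobiotic response core GCGTG was in 33.3% against 40.6%, and the heat shock element core TTCNNGAA in 11.1% against 9.46%. The differences between these shares were not tested. A match is only a match of letters.

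Animal libraries were set against 2D libraries to ask what growth in an animal changes relative to flat culture. Of 40 tested members, 11 (27.5%) were higher and 0 lower in the animal libraries, where 7.78% of all 12925 genes were higher and 4.25% lower. The test was edgeR's quasi-likelihood test with Benjamini-Hochberg adjustment over all genes. At an unadjusted p under 0.05, 17 members were higher and 5 lower, against 15.2% and 11.4% of all genes, and DESeq2 called 16 and 1, against 11.2% and 7.86% of all genes. Of the tested members, 6 passed the filter on low counts through the animal libraries alone (UGT1A7, UGT2B17, UGT2B28, SULT1B1, GSTA5 and GSTT2B), so their differences had to lean that way; UGT2B17, UGT2B28, GSTA5 and GSTT2B are among the 11.

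UGT2B15 and UGT2B11 were higher, as were UGT2B17 and UGT2B28, which had entered the test through the animal libraries alone. UGT2B15, which glucuronidates androgens, had 13.6, 16.4 and 27.4 CPM in animal libraries, against 1.44, 2.07 and 1.45 in 2D and 1.26, 1.77 and 1.59 in 3D. Every animal library lay above every cultured one, and the fold over 2D was 11.7 (log2 3.54 ± 0.36, adjusted p = 0.000676 in edgeR). UGT2B11, a close relative, averaged 9.97 ± 3.26 CPM in animal and 0.908 ± 0.110 in 2D libraries (log2 3.46 ± 0.42, adjusted p = 0.00158). UGT2B17, the other androgen-conjugating copy, averaged 4.11 ± 1.25 in animal and 0.481 ± 0.108 in 2D libraries (log2 3.09 ± 0.41, adjusted p = 0.00222). UGT2B15 and UGT2B17 share 27.5% of their 50-base windows with each other, so part of their reads could not be assigned by sequence alone. UGT2B28 had 49 reads in the animal libraries and 2 in 2D, a ratio of 28.5 with an exact 95% counting interval of 7.48 to 242 (adjusted p = 0.00398). UGT2B15, UGT2B11, UGT2B17 and UGT2B28 kept their calls under all 15 alternatives.

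The rest of the family did not follow in the same way. UGT2B7 had 29.48, 38.52 and 32.8 CPM in animal libraries against 38.2, 36.1 and 37.3 in 2D, which overlap (log2 -0.13 ± 0.26, adjusted p = 0.815). UGT2B10 averaged 4.94 ± 1.34 in animal and 2.37 ± 0.566 in 2D libraries, apart in every library but not called (log2 1.08 ± 0.35, adjusted p = 0.0814). UGT2A3 had 62.7, 63.4 and 63.7 CPM in animal libraries, against 15.4, 20.3 and 20.98 in 2D and 8.10, 5.22 and 45.9 in 3D. Its 2D and animal libraries do not overlap, and the adjusted p was 0.151 in the fit over all 9 first-round libraries. Without 3D replicates 1 and 2 the log2 difference was 1.74 (adjusted p = 4.16e-05). The summed UGT2 level was 124 to 150 CPM in animal and 58.5 to 64.2 CPM in 2D libraries.

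**Figure D2:**
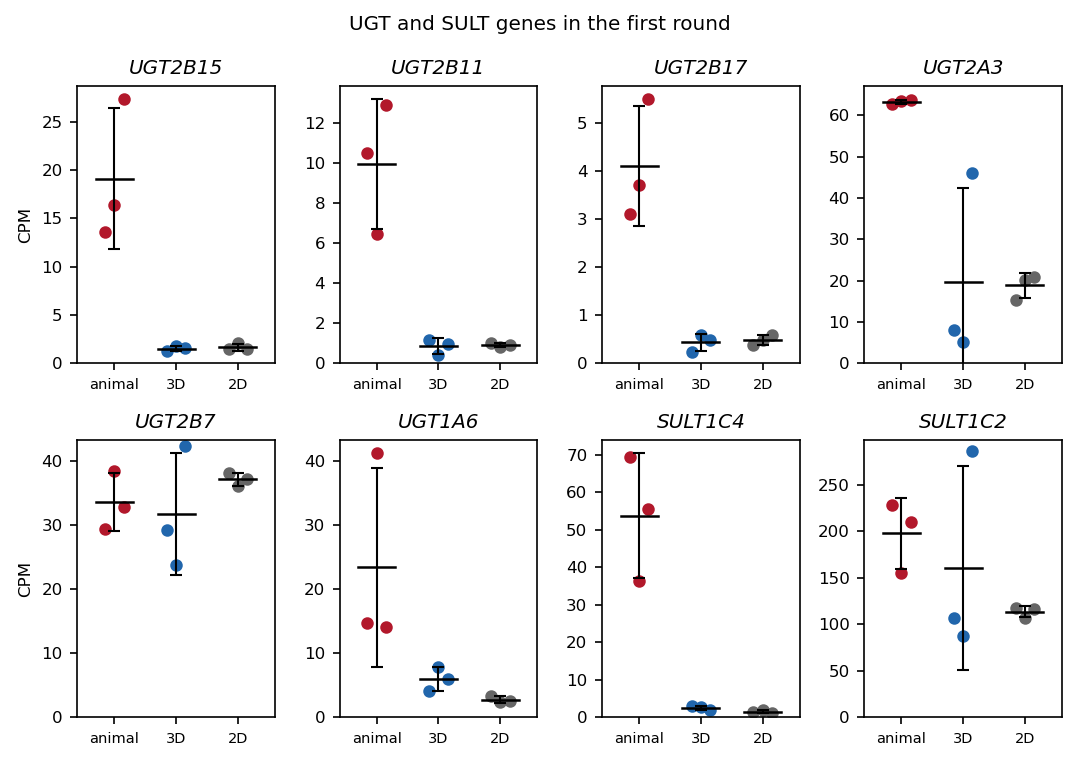
CPM of 8 UGT and SULT genes in the first round, with the animal, 3D and 2D groups on the horizontal axis; points are libraries, black lines the mean and SD (n = 3). UGT2B15, UGT2B11, UGT2B17, UGT1A6 and SULT1C4 are higher in all 3 animal libraries, while UGT2B7 overlaps between groups and 3D replicate 3 stands above the other 3D libraries in UGT2A3 and SULT1C2.

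In the UGT1A locus, UGT1A6, which conjugates small planar phenols, was higher in the animal libraries. It had 14.7, 41.3 and 14.2 CPM there, against 4.09, 7.80 and 5.995 in 3D and 3.37, 2.34 and 2.63 in 2D. Animal replicate 2 was the highest, and no animal library overlapped a cultured one (fold over 2D 8.53, log2 3.09 ± 0.49, adjusted p = 0.00476, kept under all 15 alternatives). In UGT1A9 animal replicate 2 was instead the lowest, with 17.04, 2.90 and 15.02 CPM in animal libraries against 3.15, 3.34 and 2.42 in 2D, so the groups overlapped (log2 1.98 ± 0.56, adjusted p = 0.0534). UGT1A10 and the bilirubin enzyme UGT1A1 averaged 48.6 ± 8.19 and 12.6 ± 2.92 CPM in animal libraries and 51.9 ± 2.94 and 16.1 ± 0.475 in 2D, with adjusted p = 0.871 and 0.41. UGT1A3 averaged 0.122 ± 0.0561 in animal and 0.516 ± 0.0835 CPM in 2D libraries. It lay below without overlap, near the counting floor, and was not called in edgeR (log2 -1.98 ± 0.58, adjusted p = 0.0571). Between 40.5 and 78.7% of the 50-base windows of each UGT1A gene occur in another member, and how such reads were counted is not given in the sources used here. The summed UGT1A level was 98.2 to 140 CPM in animal and 94.4 to 100 CPM in 2D libraries.

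Of the sulfotransferases, SULT1C4, an enzyme known mainly from fetal tissue, had the largest fold of the tested members over 2D in edgeR's fit. The counting interval of UGT2B28, 7.48 to 242, spans that fold. SULT1C4 had 69.6, 36.4 and 55.6 CPM in animal libraries, against 2.99, 2.72 and 1.90 in 3D and 1.39, 2.02 and 1.18 in 2D. The groups were far apart, with a fold of 35.4 over 2D (log2 5.15 ± 0.36, adjusted p = 0.000199, kept under all 15 alternatives). SULT1C3, named after its values were seen, had 16 reads in animal libraries and 0 in 2D and in 3D, which is at least 2.12-fold higher than 2D with a floor of 3 counts per library, and was too low to be tested. SULT1C2, the most abundant sulfotransferase, had 228, 155 and 209.9 CPM in animal libraries against 117, 107 and 116 in 2D, with no overlap and an adjusted p of 0.266 (0.00189 without 3D replicates 1 and 2). SULT1A1, which sulfates phenols, averaged 7.69 ± 1.22 in animal and 2.74 ± 0.441 CPM in 2D libraries (log2 1.502 ± 0.33, adjusted p = 0.0187).

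Among the glutathione transferases, GSTO2, which reduces dehydroascorbate, had 14.9, 13.2 and 16.03 CPM in animal libraries against 4.70, 5.36 and 4.29 in 2D. All 3 animal values were above all 2D values (fold 3.10, log2 1.64 ± 0.27, adjusted p = 0.00569, kept under all 15 alternatives). GSTA2, an alpha-class enzyme of hepatocytes, averaged 6.64 ± 1.51 in animal and 2.56 ± 0.516 CPM in 2D libraries (adjusted p = 0.0211). GSTA5 averaged 1.15 ± 0.291 and 0.392 ± 0.0635 (adjusted p = 0.027), and GSTT2B 1.62 ± 0.226 and 0.320 ± 0.140 CPM in animal and 2D libraries (adjusted p = 0.0349). GSTT2B shares 90.9% of its windows with other genes and is uncertain for that reason. GSTA1, named after its values were seen, had 18.9, 45.52 and 28.9 CPM in animal against 14.6, 14.2 and 14.8 in 2D libraries (adjusted p = 0.0561). GSTM3 averaged 41.2 ± 2.26 in animal and 103 ± 1.35 CPM in 2D libraries. It lay below without overlap but was not called in edgeR (log2 -1.305 ± 0.37, adjusted p = 0.055). DESeq2 and a correction for GC content and length called GSTM3 lower. MGST1 had 580.4, 599.8 and 702 CPM in animal libraries and 777, 764 and 828 in 2D, below without overlap, at an adjusted p of 0.355. GSTO1 averaged 46.6 ± 7.49 in animal and 48.4 ± 3.67 in 2D libraries (adjusted p = 0.957).

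The number of calls changed with the libraries fitted. Without 3D replicates 1 and 2, 22 members were higher and 6 lower in animal libraries, where 28.4% and 27.2% of all genes were, and with a correction for GC content and length 14 and 4, against 14.4% and 12.9%. Leaving out animal replicate 3 left 7 higher, against 5.73% of all genes, and leaving out any 2D library left 7, against 3.38 to 3.67%. The calls that then ended were among SULT1A1, GSTA2, GSTA5 and GSTT2B, with adjusted p-values up to 0.101, 0.115, 0.14 and 0.143 over the alternatives.

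Markers of other cells moved with the animal libraries. The summed level of 7 fibroblast and pericyte markers was 162 to 456 CPM in animal and 64.6 to 69.1 CPM in 2D libraries, and 5 of the 6 tested were higher. Of the 5 endothelial markers in the table, whose sum was 5.72 to 16.6 CPM in animal and 1.43 to 1.72 CPM in 2D libraries, the 2 tested, TEK and KDR, were higher, and VWF lay at 0.0199 ± 0.0345 CPM in animal and 0.214 ± 0.0924 CPM in 2D libraries. The sum of 9 macrophage markers was 157 to 216 CPM in animal and 103 to 109 CPM in 2D libraries, with 3 of 5 tested higher and C1QA and C1QB at 0 reads in the animal libraries. Red blood cell markers summed to 0.718 to 6.26 CPM in animal and 0.107 to 0.376 CPM in 2D libraries. Of 9 tested hepatocyte markers 5 were higher, and ALB was 115, 89.9 and 282 CPM in animal libraries against 2.40, 2.12 and 2.58 in 2D. The sum of all 11 hepatocyte markers was instead lower, at 3214 to 3330 CPM in animal and 3646 to 3790 CPM in 2D libraries. Most of the 2D sum is the keratin KRT8, whose level is given above, so the sum says little about ALB or AFP. Removal of host reads is not given in the sources used here, and the part of host cells in the UGT, SULT and GST differences was not tested.

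Other genes of these pathways were read in the same fit. Of 8 tested regulators the smallest adjusted p was that of the xenobiotic receptor NR1I2, at 16.6 ± 6.49 in animal and 8.03 ± 0.224 CPM in 2D libraries (adjusted p = 0.127), followed by KEAP1 (0.264). Of 8 genes of glutathione supply and breakdown, 1 was lower, the glutathione reductase GSR at 228 ± 14.6 against 507 ± 14.1 CPM (adjusted p = 0.00367), and the synthesis subunit GCLM had an adjusted p of 0.0646. Of 5 conjugate exporters 1 was lower, ABCC1 at 117 ± 13.53 against 244 ± 11.4 CPM (adjusted p = 0.00824), next to ABCC3 (adjusted p = 0.11). For UDP-glucuronic acid supply the smallest adjusted p-values were those of SLC35D1 (0.439) and UGDH (0.44), and for sulfate supply those of PAPSS2 (0.61) and STS (0.708). Among relatives outside the families they were those of PTGES (0.109) and GDAP1 (0.122). The methyltransferase NNMT had 6.10, 39.7 and 6.52 CPM in animal libraries against 0.374, 0.106 and 0.0537 in 2D (adjusted p = 0.00487), and NAT1 did not pass (adjusted p = 0.653).

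First-round 3D libraries were then set against 2D libraries to ask what the 3D environment changes. Of 40 tested members, 8 (20.0%) were higher and 0 lower in 3D, which is the share of all genes called higher, 20.0%; 12.9% of all genes were lower. At an unadjusted p under 0.05 edgeR gave 10 higher and 0 lower, against 26.4% and 19.4% of all genes, and DESeq2 called 10 and 0, against 26.2% and 17.4% of all genes. The 8 were 3 GST, 2 MGST and 3 SULT genes.

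GSTO2 had 15.6, 15.3 and 8.44 CPM in 3D libraries against 4.70, 5.36 and 4.29 in 2D. The lowest 3D library, replicate 3, still lay above 2D (fold 2.64, log2 1.40 ± 0.27, adjusted p = 0.00645 in edgeR, with a log2 of 0.82 without 3D replicates 1 and 2). MGST2, a microsomal enzyme that can make leukotriene C4, had 60.1, 55.6 and 30.3 CPM in 3D against 19.9, 20.3 and 20.1 in 2D. Here too all 3D libraries were above 2D, replicate 3 least (log2 1.23 ± 0.25, adjusted p = 0.00822, with a log2 of 0.60 without the 2 libraries). GSTO2 and MGST2 kept their calls under all 15 alternatives.

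SULT1A3 and SULT1A4, near-identical copies that sulfate dopamine, were higher together. SULT1A3 had 28.9, 53.4 and 21.8 CPM in 3D libraries against 13.04, 13.96 and 13.8 in 2D. SULT1A4 had 29.2, 48.1 and 21.47 CPM in 3D libraries against 11.7, 11.8 and 13.47 in 2D. The 3D libraries were above 2D in both genes, with log2 differences of 1.30 ± 0.31 (adjusted p = 0.0141) and 1.36 ± 0.29 (adjusted p = 0.0088). Since 94.3 and 98.4% of their windows occur in the other copy, the pair counts as a single uncertain observation. SULT1A1 averaged 7.85 ± 3.06 in 3D and 2.74 ± 0.441 CPM in 2D libraries (log2 1.46 ± 0.33, adjusted p = 0.0112). SULT1A3, SULT1A4 and SULT1A1 no longer passed after a correction for GC content and transcript length, with adjusted p-values of 0.171, 0.0806 and 0.198.

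The other called members rested on 3D replicates 1 and 2. GSTP1, the pi-class enzyme, had 306, 332 and 72.4 CPM in 3D libraries against 76.53, 73.1 and 79.9 in 2D. Replicates 1 and 2 lay far above 2D and replicate 3 just below it, and the log2 difference of 1.57 ± 0.45 (adjusted p = 0.028) turned to -0.07 without replicates 1 and 2 and to -0.18 after the correction. MGST3 had 239, 179.8 and 87.7 CPM in 3D against 76.05, 73.2 and 78.1 in 2D libraries, all above 2D (log2 1.10 ± 0.33, adjusted p = 0.0311, and adjusted p = 0.404 without the 2 libraries). GSTK1, an enzyme of mitochondria and peroxisomes, had 234, 222 and 125 CPM in 3D against 92.8, 91.8 and 96.1 in 2D libraries, again all above 2D (log2 1.001 ± 0.26, adjusted p = 0.0196, and adjusted p = 0.143 without them). After the correction for GC content and length the GSTK1 difference was 0.012 on the log2 scale (adjusted p = 0.968). GSTM3, a mu-class enzyme, had 204, 167 and 57.02 CPM in 3D against 103, 104 and 102 in 2D libraries. Replicates 1 and 2 lay above 2D and replicate 3 below, and GSTM3 was not called with all libraries (adjusted p = 0.399); replicate 3 alone gave a log2 difference of -0.85.

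Other abundant members were not called in 3D. MGST1 had 916, 625 and 821 CPM in 3D libraries against 777, 764 and 828 in 2D (adjusted p = 0.879), but passed after the correction, at log2 1.23 (adjusted p = 0.0465). GSTO1 had 103, 98.1 and 40.3 against 52.3, 44.95 and 47.98 (adjusted p = 0.125). SULT1C2 had 107, 87.9 and 287 CPM in 3D libraries, where replicate 3 alone stood above the 2D values (adjusted p = 0.39). UGT1A10 had 53.4, 66.4 and 72.6 CPM in 3D libraries against 49.8, 55.3 and 50.6 in 2D (adjusted p = 0.334). After the correction, 3 of 7 tested UGT1A genes were higher in 3D (UGT1A1, UGT1A6 and UGT1A10), where 14.1% of all genes were. UGT2A3, given above by library, also had its high value in 3D replicate 3 (log2 0.07 ± 0.69 with all libraries and 1.29 without replicates 1 and 2).

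Without 3D replicates 1 and 2, 9 members were higher and 1 lower, against 22.9% and 23.6% of all genes, and after the correction 7 and 0, against 14.1% and 18.3%. Without 3D replicate 1, 5 were higher, against 12.3% of all genes. Without 3D replicate 3, 16 were higher and 2 lower, against 34.7% and 37.5%. Without 2D replicates 1, 2 and 3 in turn, 3, 3 and 4 were higher, against 8.88, 8.58 and 9.25%. GSTP1, MGST3, GSTK1 and SULT1A3 lost their calls without any single 2D library, and SULT1A1 without 2D replicate 1 or 2; GSTP1 and MGST3 also lost them without 3D replicate 1 or 2, and GSTK1 without 3D replicate 1. Their highest adjusted p-values over the alternatives were 0.622 for GSTP1, 0.404 for MGST3, 0.968 for GSTK1, 0.171 for SULT1A3 and 0.198 for SULT1A1.

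**Figure D3:**
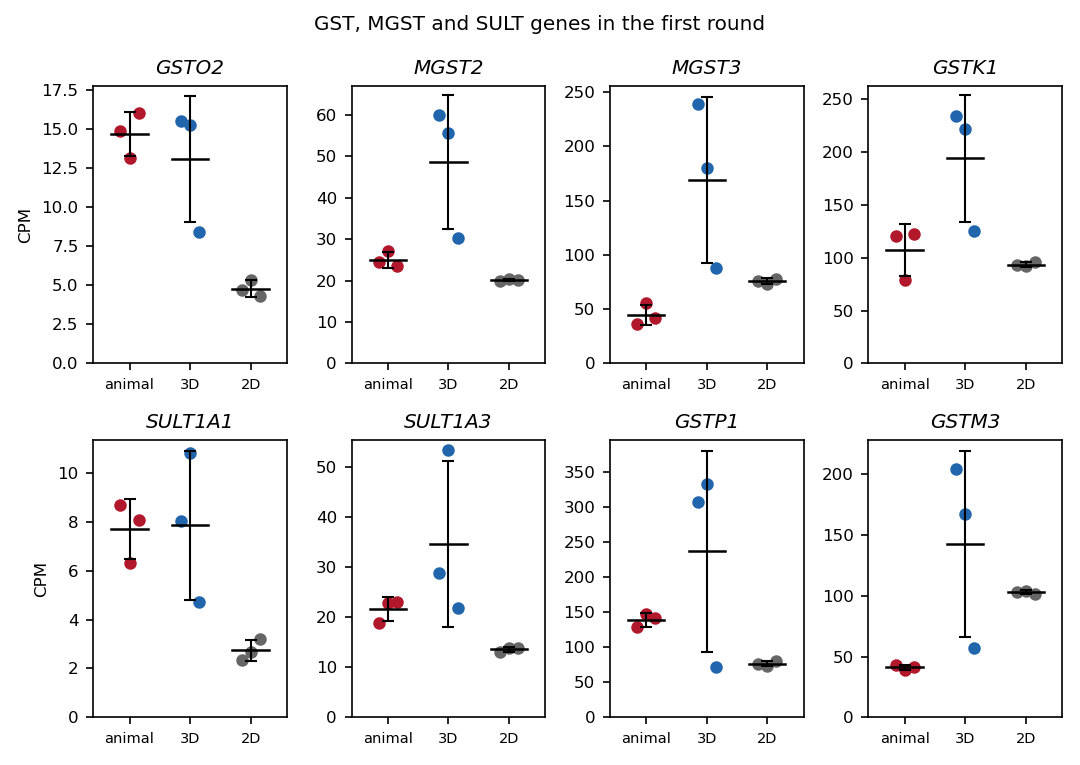
CPM of 8 GST, MGST and SULT genes in the first round, with the animal, 3D and 2D groups on the horizontal axis; points are libraries, black lines the mean and SD (n = 3). In GSTO2 and MGST2 all 3D libraries lie above 2D, whereas in GSTP1 and GSTM3 only 3D replicates 1 and 2 do.

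Of 8 tested genes of glutathione supply and breakdown, 5 were lower and 0 higher in 3D, with a median log2 difference of -1.24 beside 0.03 over all genes (-0.77 without 3D replicates 1 and 2, with 6 lower, and -0.47 after the correction, with 4 lower). GSR had 273, 257 and 193 CPM in 3D libraries against 523, 502 and 496 in 2D (adjusted p = 0.00285). GGCT, which acts on gamma-glutamyl peptides, had 16.3, 10.7 and 18.7 CPM in 3D against 43.4, 44.7 and 45.8 in 2D (adjusted p = 0.00341). Both groups were well apart, and the other genes lower were GCLC, GCLM and SLC7A11. UGDH, which makes UDP-glucuronic acid, was lower (329.6 ± 89.4 in 3D and 571 ± 12.4 CPM in 2D, adjusted p = 0.0251) and the glucuronidase GUSB higher (119.5 ± 16.1 and 59.1 ± 4.12, adjusted p = 0.00956), 1 and 1 of 4 tested. Of 5 exporters ABCC3 was higher (559 ± 97.4 in 3D and 294 ± 11.1 in 2D, adjusted p = 0.0107) and ABCC4 lower (adjusted p = 0.031). Of 7 sulfate supply genes the donor transporter SLC35B2 was higher (adjusted p = 0.029) and SLC26A2 did not pass (adjusted p = 0.0864). The xenobiotic receptor AHR was the 1 of 8 regulators called, lower in 3D (adjusted p = 0.029), and NR1I2 had an adjusted p of 0.0814. Of the relatives, GDAP1 and GSTCD were lower (adjusted p = 0.00699 and 0.0073) and 1 of 3, PTGES, higher. NAT1 and TPMT were lower, NAT1 at adjusted p = 0.035. Of the markers, CD68, ITGAM and CD74 were higher (3 of 5 tested macrophage markers, whose sum was 386 to 500.4 CPM in 3D and 103 to 109 CPM in 2D libraries), and COL1A1 and DCN were lower (2 of 6 fibroblast markers); their part in the member differences was not tested.

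Animal against 3D libraries set the same animal libraries against the first-round 3D libraries, so it shares libraries with both comparisons above. Of 40 tested members, 10 (25.0%) were higher and 11 (27.5%) lower in animal libraries, where 18.6% of all genes were higher and 22.9% lower. DESeq2 called 10 and 12, against 23.0% and 28.6% of all genes, and the correction for GC content and length gave 11 and 13, against 23.8% and 17.1%. The 10 were UGT2B15, UGT2B11, UGT2B10, UGT2B17, UGT2B28, UGT1A6, UGT1A9, SULT1C4, SULT1B1 and GSTA2, of which UGT2B17, UGT2B28 and SULT1B1 had entered the test through the animal libraries alone. UGT2B15, UGT2B11 and UGT2B17 had log2 differences of 3.68 ± 0.36, 3.56 ± 0.43 and 3.25 ± 0.42 (adjusted p = 0.000406, 0.000801 and 0.00108 in edgeR), and 3.57, 3.33 and 3.04 without 3D replicates 1 and 2. UGT2B28 had 49 reads in the animal and 1 in the 3D libraries, a ratio of 43.3 with an exact 95% interval of 7.41 to 1740. UGT2B10 averaged 4.94 ± 1.34 in animal and 2.31 ± 0.647 CPM in 3D libraries (adjusted p = 0.0307), a call that ended without 3D replicates 1 and 2 (adjusted p = 0.201), without either of them, without animal replicate 2 or 3, and after the correction (adjusted p up to 0.77 over the alternatives). SULT1C4 was 22.1-fold higher (log2 4.47 ± 0.35, adjusted p = 0.000295) and UGT1A6 4.09-fold (log2 2.03 ± 0.47, adjusted p = 0.00995, 0.0511 without 3D replicates 1 and 2).

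Also higher were UGT1A9, at 17.04, 2.90 and 15.02 CPM in animal against 2.52, 3.75 and 3.67 in 3D libraries, which overlap through animal replicate 2 (adjusted p = 0.0285, 0.157 without 3D replicates 1 and 2, and up to 0.157 over alternatives that include leaving out animal replicate 1 or 3). GSTA2 averaged 6.64 ± 1.51 in animal and 2.96 ± 0.753 CPM in 3D libraries (adjusted p = 0.0146), with no call after the correction (log2 0.33, adjusted p = 0.533) or without animal replicate 3 or 3D replicate 1. SULT1B1, which sulfates thyroid hormone, averaged 2.32 ± 2.72 and 0.189 ± 0.263 (adjusted p = 0.0325), with its highest level in animal replicate 2 and no call without that library or without 3D replicate 1 or 2 (adjusted p up to 0.215 over the alternatives).

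Lower in the animal libraries were chiefly GST and MGST genes, 6 of 15 and 2 of 3 tested. GSTZ1, an enzyme of tyrosine breakdown, had 9.93, 6.46 and 7.78 CPM in animal libraries against 42.4, 43.49 and 14.3 in 3D. The groups did not overlap (log2 -1.98 ± 0.39, adjusted p = 0.00518), and against 3D replicate 3 alone the log2 difference was -0.84. GSTM3 had 43.2, 38.8 and 41.7 CPM in animal libraries, below every 3D library (log2 -1.72 ± 0.38, adjusted p = 0.00831, log2 -0.48 without the 2 libraries). MGST3 had 36.54, 55.3 and 42.2 CPM in animal libraries, likewise below every 3D library (log2 -1.85 ± 0.33, adjusted p = 0.00365, log2 -0.98 without them). GSTZ1, GSTM3, MGST3 and GSTM2 kept their calls under all 15 alternatives. GSTM2 averaged 0.282 ± 0.188 in animal and 1.86 ± 0.883 CPM in 3D libraries, and GSTM1 0.469 ± 0.320 and 1.80 ± 1.11, with adjusted p = 0.00866 and 0.0441; GSTM1 overlapped and shares 40.3% of its windows with GSTM2.

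GSTM4 had 7.54, 8.82 and 10.3 CPM in animal libraries against 31.9, 46.1 and 10.3 in 3D and 14.9, 13.4 and 14.8 in 2D. Its call against 3D (log2 -1.65 ± 0.45, adjusted p = 0.0184) ended without 3D replicates 1 and 2 (adjusted p = 0.375). The same held for MGST2, at 24.4, 27.1 and 23.4 CPM in animal libraries (adjusted p = 0.0211, then 0.0864), and for GSTK1, at 121, 78.99 and 122 CPM (adjusted p = 0.0376, then 0.411). SULT2B1, a cholesterol sulfotransferase, averaged 0.429 ± 0.334 in animal and 1.70 ± 0.737 CPM in 3D libraries (adjusted p = 0.0304, then 0.314). Of the UGT1A locus, UGT1A1 had 9.51, 15.3 and 13.1 CPM in animal libraries against 22.01, 21.9 and 23.1 in 3D (log2 -0.77 ± 0.23, adjusted p = 0.0261, 0.0146 without the 2 libraries), below without overlap. UGT1A3, which conjugates bile acids, averaged 0.122 ± 0.0561 and 0.929 ± 0.449 CPM in animal and 3D libraries (log2 -2.81 ± 0.56, adjusted p = 0.00543). GSTP1 was not called (adjusted p = 0.219) with all libraries; against 3D replicate 3 alone its log2 difference was 0.93, and after the correction it was higher in animal libraries (log2 1.02, adjusted p = 0.00143).

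Without 3D replicates 1 and 2 the counts were 9 higher and 10 lower, where 24.6% and 22.5% of all genes passed. Without 3D replicate 1 they were 6 and 5, against 10.5% and 15.1%, and without animal replicate 1 they were 10 and 5, against 11.7% and 14.9%. Leaving out animal replicate 1 ended the calls of UGT1A1, GSTM4, MGST2, GSTK1, GSTM1 and SULT2B1, and so did leaving out 3D replicate 1. The calls of GSTK1, GSTM1 and SULT2B1 also ended without 3D replicate 2, those of GSTM4, GSTK1 and GSTM1 without animal replicate 2, and those of UGT1A1, MGST2, GSTK1 and SULT2B1 without animal replicate 3. Their highest adjusted p-values over the alternatives were 0.0924 for UGT1A1, 0.375 for GSTM4, 0.0864 for MGST2, 0.949 for GSTK1, 0.817 for GSTM1 and 0.329 for SULT2B1. Fibroblast markers summed to 162 to 456 CPM in animal and 16.3 to 112 CPM in 3D libraries, with 5 of 6 tested higher. Macrophage markers summed to 157 to 216 CPM in animal and 386 to 500.4 CPM in 3D libraries, with 2 of 5 tested higher and 1 lower. Hepatocyte markers summed to 3214 to 3330 CPM in animal and 3012 to 10265 CPM in 3D libraries, and of 9 tested, 4 were higher and 2 lower. The part of these markers in the member differences was not tested.

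Among the neighbouring genes, 2 of 8 glutathione genes were higher and 2 lower, with GGCT at 54.6 ± 8.46 in animal and 15.2 ± 4.09 CPM in 3D libraries (adjusted p = 0.00123) and CHAC1 lower (adjusted p = 0.029); GCLM was the other higher gene and GSS the other lower one. Of 5 exporters 1 was higher and 2 lower, ABCC3 at 199 ± 26.9 against 559 ± 97.4 CPM (adjusted p = 0.00131) and ABCC1 (adjusted p = 0.00601). GUSB was the 1 lower of 4 glucuronic acid genes (adjusted p = 0.00532), next to UGDH (0.0966), and SLC35B2 the 1 lower of 7 sulfate genes (adjusted p = 0.0182), next to PAPSS2 (0.0567). Of 8 regulators AHR was higher (adjusted p = 0.014) and its partner ARNT lower (adjusted p = 0.0211). GDAP1 and GSTCD, 2 of 3 relatives, were higher (adjusted p = 0.00114 and 0.0122). TPMT was higher, and NNMT was higher (adjusted p = 0.00163).

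**Figure D4:**
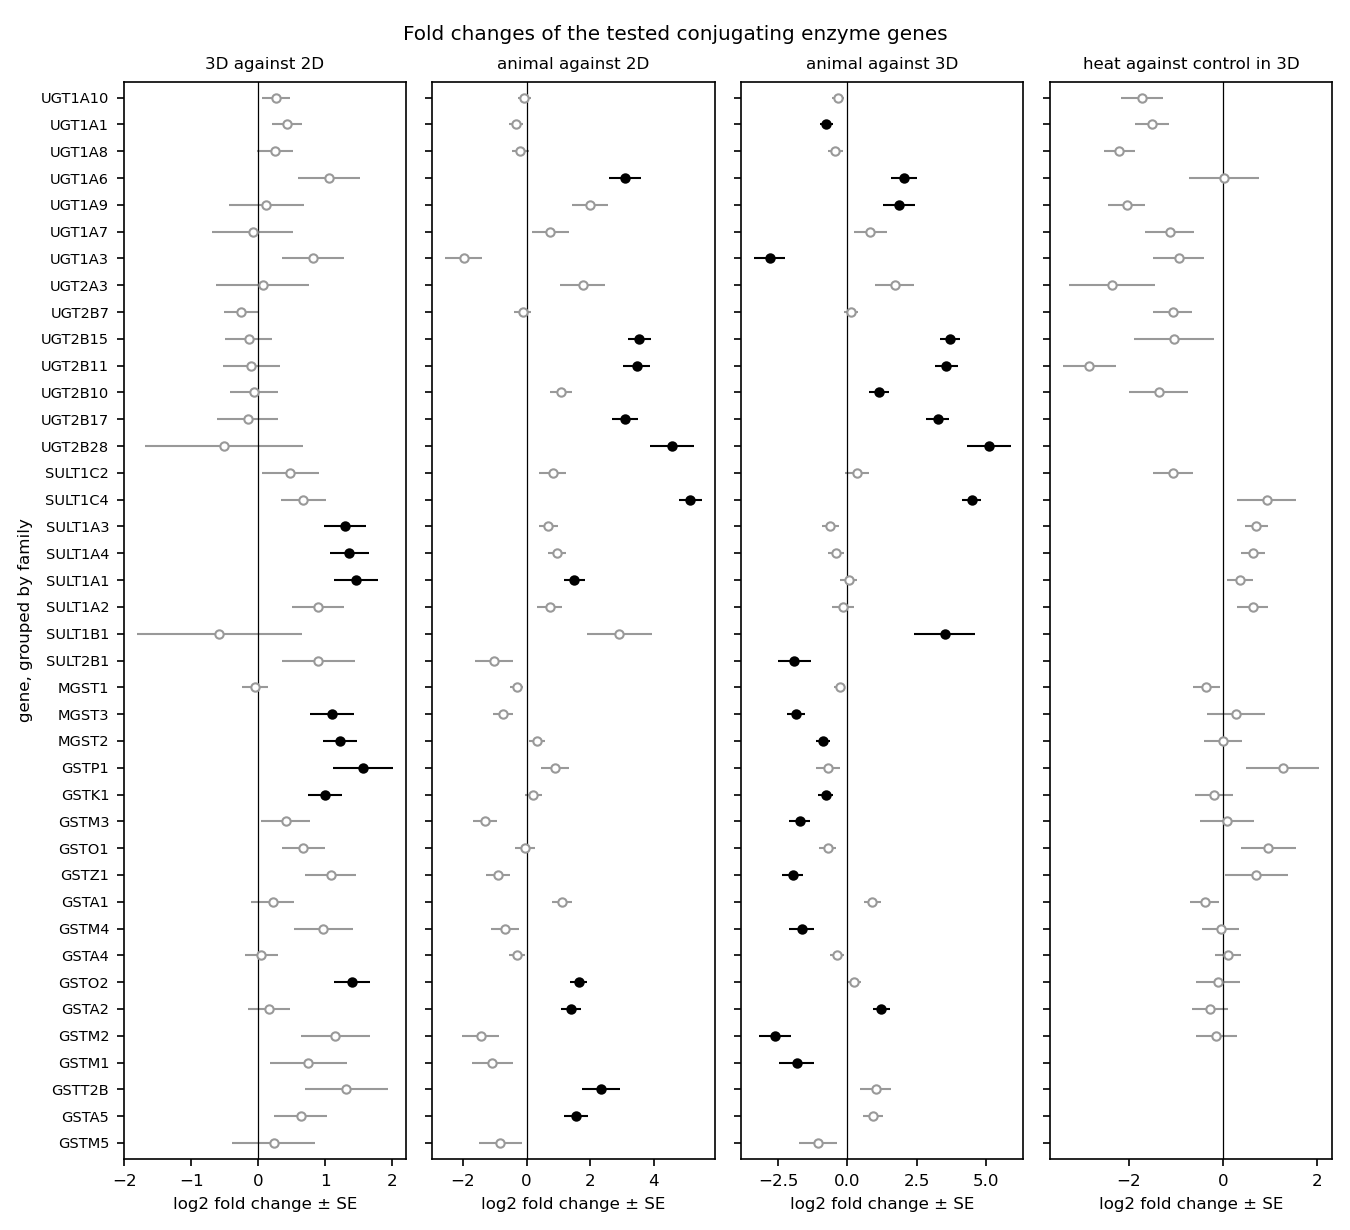
Log2 fold change ± SE (horizontal axes) of the 40 members tested in either round (vertical axis) in the 4 comparisons, from edgeR's fit in each round; filled points passed an adjusted p of 0.05. In animal against 2D and animal against 3D, UGT2B15, UGT2B11, UGT2B17 and UGT2B28 lie at 3.09 or more, and in heat against control no point is filled.

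The last comparison asked what heating changes in the 3D model, within the second round. Of 32 tested members 0 were higher and 0 lower after heat in edgeR, where 0.00792% of all 12627 genes were higher and 0.0158% lower, that is 1 and 2 genes. At an unadjusted p under 0.05, 2 members were higher and 8 lower, against 11.8% and 8.97% of all genes. DESeq2 called 0 higher and 6 lower, against 6.80% and 5.51% of all genes. Of the tested members, 6 passed the filter through the control libraries alone (UGT1A9, UGT1A7, UGT1A3, UGT2B15, UGT2B10 and UGT2B11), so their differences had to lean toward lower after heat. UGT1A9 and UGT2B11, called lower below in DESeq2 and in other settings, are among them. So are UGT2B10 and UGT2B15, called lower only without heat replicate 2. Heat replicate 1, the library whose levels followed GC content, was at an extreme for many members.

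The UGT1A values were below the controls in heated libraries for most genes of the locus, without passing edgeR's threshold. UGT1A10 had 6.83, 23.7 and 18.7 CPM in heated libraries against 58.8, 53.2 and 53.9 in controls (log2 -1.71 ± 0.45, adjusted p = 0.123 in edgeR and 0.00584 in DESeq2). UGT1A1 had 5.89, 14.2 and 8.66 CPM in heated libraries against 29.2, 27.6 and 27.2 in controls (log2 -1.505 ± 0.35, adjusted p = 0.113 and 0.00274). UGT1A9 had 0.561, 1.16 and 0.559 CPM against 3.44, 3.32 and 3.10 (log2 -2.04 ± 0.40, adjusted p = 0.0909 and 0.000625). All 3 heated libraries lay below all 3 controls in each of these genes. UGT1A8, named after its values were seen, had 2.99, 5.07 and 6.31 CPM in heated libraries against 25.2, 22.55 and 20.4 in controls (log2 -2.19 ± 0.34, adjusted p = 0.0805 and 2.45e-07). Between 49.4 and 76.9% of the 50-base windows of UGT1A1, UGT1A9, UGT1A8 and UGT1A10 occur in other members, so these genes may not be separate observations. Summed over the locus, heated libraries had 17.8 to 55.9 CPM and controls 111 to 125 CPM. UGT1A6 stood apart from this, at 1.12, 9.42 and 1.96 CPM in heated libraries against 5.04, 3.78 and 3.81 in controls, with replicate 2 above the controls (adjusted p = 0.985).

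In the UGT2 family, UGT2A3 had 1.12, 25.04 and 6.48 CPM in heated libraries against 64.7, 55.8 and 50.6 in controls (log2 -2.35 ± 0.92, adjusted p = 0.218 and, in DESeq2, 0.0416). UGT2B7, also named after its values were seen, had 14.2, 31.6 and 11.1 CPM against 40.05, 43.1 and 38.6 (log2 -1.06 ± 0.41, adjusted p = 0.216). UGT2B11 averaged 0.279 ± 0.177 in heated and 2.19 ± 0.875 CPM in control libraries (log2 -2.84 ± 0.56, adjusted p = 0.095 and, in DESeq2, 0.000891). None of these groups overlapped, and heat replicate 2 was nearest to the controls in all of them. UGT2B15 had 0.281, 3.09 and 0.391 CPM in heated libraries against 3.84, 1.95 and 2.40 in controls and overlapped (adjusted p = 0.507). The UGT2 sum was 16.3 to 63.8 CPM in heated and 96.9 to 116 CPM in control libraries.

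Of the sulfotransferases, SULT1C2 had 59.1, 188 and 110.3 CPM in heated libraries against 242, 261 and 261 in controls, with no overlap (log2 -1.06 ± 0.42, adjusted p = 0.223). SULT1A3 had 22.7, 18.4 and 24.8 CPM against 13.8, 13.7 and 14.1 and SULT1A4 19.46, 16.7 and 23.7 against 12.7, 12.9 and 13.7, above the controls in all heated libraries (adjusted p = 0.179 and 0.215). MGST1 had 617, 602 and 503 CPM in heated libraries against 724, 765 and 772 in controls, below without overlap (log2 -0.35 ± 0.29, adjusted p = 0.498). In GSTP1, GSTO1, GSTM3, MGST3, GSTK1 and GSTZ1, heat replicate 1 lay above all controls and at least 1 other heated library below all of them. GSTP1, for example, had 329, 45.1 and 54.1 CPM in heated libraries against 59.53, 60.8 and 63.4 in controls (adjusted p = 0.373), and GSTO1 had 149, 38.3 and 35.8 against 38.3, 39.03 and 41.05 (adjusted p = 0.374). SULT1C4 had 2.25, 11.3 and 2.91 CPM in heated libraries against 3.04, 3.15 and 2.69 in controls, with replicate 2 high (adjusted p = 0.416).

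**Figure D5:**
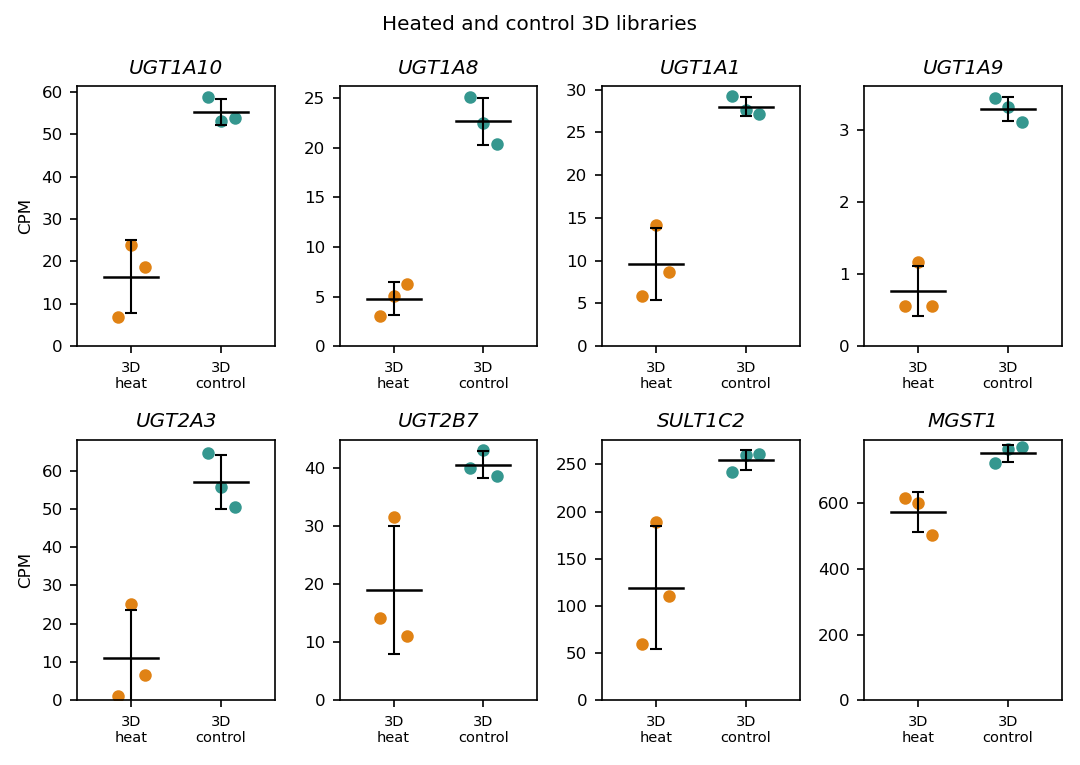
CPM of 8 members in the 3D heat and 3D control groups (horizontal axis); points are libraries, black lines the mean and SD (n = 3). In all 8 genes the 3 heated libraries lie below the 3 controls, and none passed the adjusted threshold in edgeR. The 8 genes are a selection. Members not drawn include SULT1A3 and SULT1A4, above the controls in all heated libraries, and UGT1A6, which overlapped the controls.

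Without heat replicate 1, 10 members were lower and 2 higher after heat, where 14.8% of all genes were lower and 14.0% higher. The lower ones were UGT1A8, UGT1A10, UGT1A9, UGT1A1 and UGT2B11 (log2 -1.97, -1.35, -1.88, -1.26 and -2.67) with GSTM4, GSTM3, GSTK1, MGST1 and MGST3 (log2 -0.56, -0.91, -0.76, -0.42 and -0.84). SULT1A3 and SULT1A4 were higher (log2 0.67 and 0.65). UGT2A3 and SULT1C2 then had adjusted p-values of 0.0501 and 0.0553. Without heat replicate 2, 7 members were lower and 0 higher, where 3.58% of all genes were lower and 4.55% higher. The 7 were UGT1A1, UGT1A8, UGT1A9, UGT2B7, UGT2B10, UGT2B11 and UGT2B15. Of these, UGT1A9, UGT2B10, UGT2B11 and UGT2B15 had passed the main fit's filter through the control libraries alone. Their lean toward lower after heat was therefore set by the filter, and the 7 cannot be read against the share of all genes. With all libraries and the correction for GC content and length, 6 were lower, namely UGT1A8, UGT1A10, UGT1A9, UGT1A1, UGT2B11 and GSTK1, where 5.61% of all genes were lower and 5.57% higher.

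Among the neighbouring genes, those with the smallest adjusted p-values of each list after heat in edgeR are given. The exporters ABCC3 and ABCC4 lay at 156 ± 30.6 and 9.70 ± 3.57 CPM in heated libraries, against 444 ± 5.10 and 25.3 ± 1.99 in controls (adjusted p = 0.0904 and 0.12). The steroid sulfatase STS and the sulfate donor synthase PAPSS1 had adjusted p = 0.104 and 0.114, the nuclear receptor PPARA and KEAP1 0.123 and 0.13, and UGP2 and UGDH 0.172 and 0.347. CHAC1 and GCLM had 0.177 and 0.356, PTGES and GSTCD 0.163 and 0.461, and NAT1 and TPMT 0.486 and 0.747. Without heat replicate 1, ABCC3 and ABCC4 were lower (log2 -1.53 and -1.08), as were STS and PAPSS1 (log2 -1.06 and -0.91), PPARA, UGP2, GUSB and SLC35B2. KEAP1, AHR, CHAC1, SLC26A2 and NAT1 were higher in that setting (log2 0.74, 0.67, 0.90, 0.85 and 0.94). Fibroblast markers summed to 20.7 to 55.9 CPM in heated and 75.9 to 77.0 CPM in control libraries, but single genes lay on either side. COL1A1 had 5.43, 2.13 and 9.22 CPM in heated libraries against 1.09, 0.687 and 1.05 in controls, and DCN 4.12, 4.88 and 4.30 against 13.52, 13.4 and 13.2. Without heat replicate 1, COL1A1 and COL1A2 were higher (log2 2.61 and 1.74) and DCN lower (log2 -1.51). Macrophage markers summed to 237 to 509 CPM in heated and 229 to 247 CPM in control libraries, with C1QA, C1QB and LYZ at 0 reads in the heated libraries. Without heat replicate 1, the macrophage marker ITGAM was higher (log2 2.205), and CD14, CD68 and CD74 were not called. Hepatocyte markers summed to 1442 to 4541 CPM in heated and 2998 to 3239 CPM in control libraries. Without heat replicate 1, SERPINA1, TF, APOA1, KRT8 and KRT18 were lower (log2 -3.66, -2.43, -2.14, -1.025 and -1.25). ALB, AFP, TTR and FGB were not called there. The part of these markers in the member values was not tested.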

How the data were processed

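Single-end 50-base bulk RNA libraries (random hexamers, no unique molecular identifiers, no strand-marking step) were sequenced on a BGISEQ instrument, per the labels' protocols. The deposited values are raw counts per gene. The submitters' processing notes name HISAT2 and hg19 without versions, and how genes were counted, shared reads assigned or host reads filtered is not given in the sources used here. Here, edgeR 4.0.16 (R 4.3.3) was fitted to each round separately with filterByExpr, TMM scaling and robust quasi-likelihood tests; p-values were adjusted by Benjamini-Hochberg over all tested genes, and a gene was called at an adjusted p under 0.05. DESeq2 1.42.0, median-ratio scaling, other filters, a replicate block, an offset for GC content and transcript length, and left-out libraries were alternatives. Depth was 12605539 to 18634295 counts per library; intervals and floors cover counting error only. Called members with a mean of at least 10 CPM are given by library and other called members by group, as are members never called above 50 CPM; neighbours are the smallest p-values of each list. The members and lists were chosen with earlier results of these data known. The edgeR step was tested on simulated data.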

Additional observations from a re-analysis of the deposited data

How the results depend on the processing

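Over all alternatives, 86 counts of called members stayed within 1.5 times and 32 did not. In 3D against 2D, the members called higher ranged from 3 to 16 and those called lower from 0 to 2 when 1 library was left out, and omitting both 3D replicates 1 and 2 gave 9 and 1. For animal against 2D, left-out libraries gave 7 to 10 higher; DESeq2 gave 16 higher and 1 lower, median-ratio scaling 1 lower, no filter 1 lower, the GC and length correction 14 and 4, only the 2 groups 21 and 5 (29.5% and 27.9% of all genes), and the fit without 3D replicates 1 and 2 gave 22 and 6 (28.4% and 27.2%). In animal against 3D, left-out libraries gave 6 to 14 higher and 5 to 16 lower, and only the 2 groups 6 and 4 (7.85% and 13.8%). In heat against control, left-out libraries gave 0 to 2 higher and 0 to 10 lower, DESeq2 and the correction 6 lower each, and the correction without heat replicate 1, chosen after seeing the data, 2 and 10. Log2 differences that turned in sign were those of GSTM3 (-0.85) and GSTP1 (-0.072) in 3D against 2D and SULT1C2 (-0.54) and GSTP1 (0.93) in animal against 3D, all without 3D replicates 1 and 2; GSTP1 (-0.18) and MGST1 (1.23) in 3D against 2D and UGT2B7 (-0.82) and GSTP1 (1.02) in animal against 3D with the correction; UGT2A3 (-1.58) in 3D against 2D without 3D replicate 3, where left-out libraries gave up to 0.52; and GSTM3 (-0.91) and MGST3 (-0.84) without heat replicate 1, where left-out libraries gave up to 0.40 and 0.61, or -0.89 and -0.81 with the correction as well. The cause was not tested. Libraries with the same replicate number did not deviate together (r = -0.166 to 0.103), so the numbers were not taken as pairs; with a replicate block the counts were 6 and 0, 9 and 0, 9 and 8, and 0 and 0 in the order above. TMM scaling put the median of all genes in animal against 3D at 0.10 on the log2 scale, and median-ratio scaling at 0.00088. Members under about 0.2 CPM are at the counting floor.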

Other observations

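The 3D libraries of the first round and the 3D control libraries of the second were sequenced separately and were not compared by a test. Side by side, UGT2A3 had 8.10, 5.22 and 45.9 CPM in the first-round 3D libraries and 64.7, 55.8 and 50.6 in the 3D controls. SULT1C2 had 107, 87.9 and 287 CPM in the first-round 3D libraries and 242, 261 and 261 in the 3D controls. In both genes 3D replicate 3 was the first-round library nearest to the controls. GSTP1 had 306, 332 and 72.4 CPM in first-round 3D libraries and 59.53, 60.8 and 63.4 in the controls, again with replicate 3 nearest.

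Animal replicate 2 differed from the other animal libraries in several members. It was highest in UGT1A6 and GSTA1 and lowest in UGT1A9 and SULT1C4, by the values given above, and SULT1B1 was 0.897, 5.45 and 0.598 CPM in animal replicates 1, 2 and 3. NNMT, of the methyltransferases, was also highest there.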
